A study of Mus musculus with 14 samples.

Results

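The comparison described here is that of SS with SI mice on the second of the 2 array slides of the study: 6 of the 14 one-colour arrays, 4 from SS mice (20, 21, 22 and 23) and 2 from SI mice (27 and 28). The arrays were chosen by the slide on which they were hybridised, not by any measured value. SS mice had met an adverse social setting in the third week after birth, and SI mice had been isolated socially as juveniles. All mice of both groups were conditioned with 5 mg/kg cocaine, a dose under the threshold for place preference, went through extinction and withdrawal, and were bled 24 hours later. The series has neither unstressed mice nor mice given no cocaine, strain and age are not given in the sources used here, and each SS value is therefore read only against SI. The labels call the cells PBMC, but blood was cleared by red-cell lysis with no gradient or sort named. In such bulk RNA fewer cells of a type and less RNA per cell cannot be told apart.

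Whole blood after red-cell lysis holds lymphocytes, monocytes, neutrophils, platelets and residual reticulocytes. Platelets carry messenger RNA from the megakaryocyte, among it transcripts for adhesion receptors, chemokines of the alpha granule and the serotonin transporter. Neutrophils fill their granules in sequence during maturation in bone marrow, so that transcripts of secondary-granule proteins are abundant in precursors and low in mature circulating cells.

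Several features of the 6 arrays bear on every value that follows. SS 20 and SS 21 were by far the closest pair of arrays, compared over 159 probes spotted 10 times. Their median squared difference was 0.628 of its squared standard error, against 11.1 for the next closest of the other 90 pairs. The difference was over 2 standard errors for 15.7% of these probes, against 70.4% in that next pair. SS 20 and SS 21 were therefore counted as 1 sample, and the tests compare 3 SS samples with 2 SI mice. All 6 mice are labelled female. The Y-linked genes Eif2s3y and Ddx3y were well above background on 6 of 6 arrays here and on 0 of 8 arrays of the other slide, which holds the mice labelled male; both Xist probes were well above background on none of the 6, and 1 of them on 5 of 8 arrays of the other slide. The Sry probe went the other way, with 0 arrays here and 5 there. SI arrays lie in column 1 of the slide and SS arrays in columns 3 and 4, so stress group and column cannot be told apart. Between 34.8% (SI 28) and 40.9% (SS 22) of spots were well above background. Before scaling, SI 28 was also the dimmest array and SS 22 the brightest. Their median log2 signals lay at -0.61 and 0.74 relative to the mean of the 6 arrays, and the others between -0.09 and 0. The labels give 1 mouse per array; nothing else says how the mice were housed or processed, so p-values measure the spread between these samples.

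Levels are log2 processed signals relative to the 75th percentile of the 16427 probes well above background on all 6 arrays, and a difference is SS minus SI on that scale. Of 21549 probes tested with limma, 1023 passed an adjusted p of 0.05 (4.75%): 903 were higher in SS (4.19%) and 120 lower (0.557%). In 10984 named genes, 587 passed (5.34%), 516 higher (4.7%) and 71 lower (0.646%), with a lowest adjusted p of 0.0315. The SS and SI samples did not overlap for 2476 genes that were higher (22.5%) and 2212 that were lower (20.1%). The calls rested on every sample. Leaving out SI 27, SI 28, SS 22, SS 23, or SS 20 with SS 21 left 0 probes past the threshold in limma, with lowest adjusted p-values of 0.0681, 0.0996, 0.122, 0.157 and 0.0791. Without SS 22, SS 23, or SS 20 with SS 21, between 2907 and 5351 probes had an unadjusted p under 0.05 in limma. All 1023 probes kept their direction without any of these samples. That could not have come out otherwise in the 587 called genes, where both SI mice lay outside the SS range on the called side. Other treatments of the same arrays also ended calls. Of 60 genes that the naming rule picks and that passed, 24 remained called with normexp background correction. That correction starts from the median spot and background signals instead of the processed ones. In 1 fit with all 14 arrays 25 remained called, and 8 of the 56 tested in the deposited log2 table. With normexp 36 of the 60 had a log2 difference over 1.5 times smaller, and that value is given beside the genes described below.

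Platelet and megakaryocyte genes made up the list with the most members higher in SS. Of 44 tested members, 34 were higher, 0 were lower, and 40 did not overlap on the higher side. Over all tested genes 4.7% were higher and 22.5% did not overlap on that side. The median difference of the list was 1.76, against -0.02 over all tested genes. With normexp 32 members passed and the median was 1.67, but 4 passed in the fit with all 14 arrays and 1 in the deposited log2 table, where the median was 0.97. Among the 10 that did not pass, Pdgfb was at -0.53 and Sparc at 0.10, named here after their values were seen. Of the 46 listed genes, F2rl3 was not tested and Bin2 was not matched on the array.

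Pf4, a chemokine of the platelet alpha granule, stood at 7.10, 7.11, 6.83 and 7.30 in SS 20, 21, 22 and 23 and at 5.59 and 5.06 in SI 27 and 28. Both SI mice lay below every SS mouse, a difference of 1.76 (SE 0.26, adjusted p = 0.034), or 3.38-fold. Ppbp, the precursor of a second granule chemokine, read 7.00, 7.00, 7.05 and 7.22 in SS against 5.70 and 5.38 in SI. That is 2.93-fold higher in SS (adjusted p = 0.0315).

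The 4 members with the largest differences encode 3 receptors and 1 channel. Gp6, the collagen receptor, was at 2.88, 2.85, 3.06 and 3.30 in SS and at 1.16 and 0.89 in SI, a difference of 2.05 (SE 0.22, adjusted p = 0.0315). Gp1ba, part of the receptor for von Willebrand factor, was at 2.65, 2.63, 2.55 and 3.12 against 0.78 and 0.68, a difference of 2.04. P2ry12, the ADP receptor, showed the largest difference of the list: 2.32, 2.32, 2.15 and 2.70 in SS and 0.43 and -0.01 in SI, or 4.54-fold. Trpc6, a calcium-permeable channel, was at -1.27, -1.26, -1.52 and -0.71 against -3.48 and -2.95, a difference of 2.05, or 1.12 with normexp (adjusted p = 0.124 in limma). In all 6 of these genes the 2 groups were separate and SI 27 and SI 28 lay closer to each other than to any SS mouse.

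**Figure D1:**
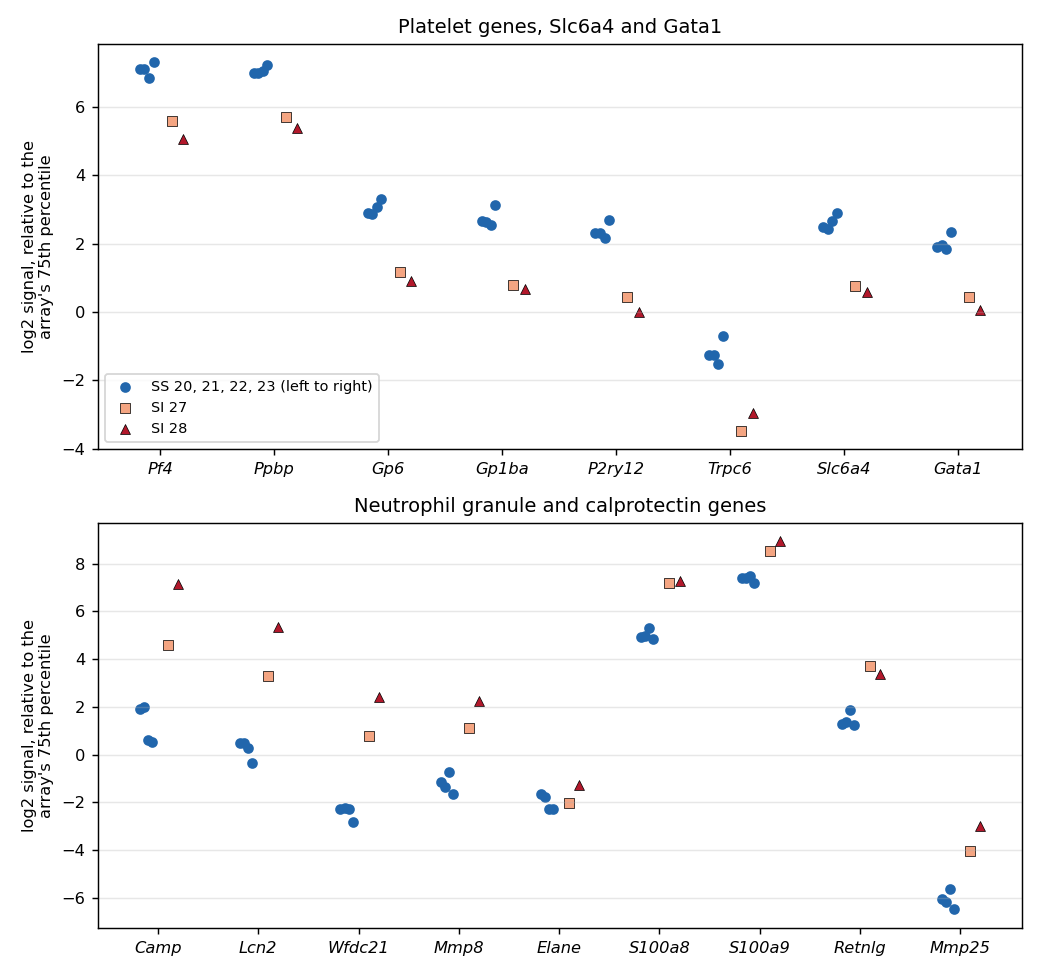
Level of each gene (log2 signal relative to the array's 75th percentile) in the 6 arrays of the slide; blue points are SS 20, 21, 22 and 23 from left to right, the square is SI 27 and the triangle SI 28. In the upper panel both SI mice lie below every SS mouse, and in the lower panel both lie above every SS mouse except for Elane, where SI 27 is at -2.05 among SS values from -2.27 to -1.65.

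The promoters of P2ry12 and Gp6, which are among the 4 platelet genes with the largest differences, are shown because 34 of the list's members were higher in SS. They are RefSeq sequences on GRCm38.p6, from 250 bases before to 50 after the start, both on the minus strand: P2ry12 at chr3:59262936-59263235 and Gp6 at chr7:4397695-4397994. Capitals mark matches on either strand to motifs of 4 families of blood transcription factors, which may overlap each other. For GATA factors the letters searched were AGATAA, and also the variant written as TGATAA. For ETS factors they were GAGGAAG, and also the variant written as CAGGAAG. For C/EBP factors the search used TTGCNNAA, where N is any base. For RUNX factors it used TGTGGT.
P2ry12: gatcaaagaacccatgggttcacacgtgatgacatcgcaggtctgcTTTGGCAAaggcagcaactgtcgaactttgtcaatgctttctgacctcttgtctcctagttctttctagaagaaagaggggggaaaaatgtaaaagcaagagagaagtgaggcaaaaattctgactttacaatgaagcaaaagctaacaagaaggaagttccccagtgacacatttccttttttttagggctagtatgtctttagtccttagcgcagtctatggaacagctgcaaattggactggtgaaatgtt
Gp6: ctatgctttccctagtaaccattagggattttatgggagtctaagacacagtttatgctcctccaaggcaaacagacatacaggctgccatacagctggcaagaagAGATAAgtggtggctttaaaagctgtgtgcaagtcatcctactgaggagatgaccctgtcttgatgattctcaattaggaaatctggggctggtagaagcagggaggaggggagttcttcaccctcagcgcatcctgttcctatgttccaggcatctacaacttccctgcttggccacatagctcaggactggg
P2ry12 holds 1 C/EBP match, 204 bases before the start, and Gp6 1 GATA match, 144 bases before it. A GATA match was present in 11 of 37 promoters of the list (29.7%) and in 19% of all 27025 genes with a supplied promoter, counting the first listed start of each gene; an ETS match was present in 37.8% and 24.5%. These are descriptions of the letters in this window.

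Some members of the lists that follow are also known to be expressed by megakaryocytes and platelets. Beside them stand the platelet markers as a whole: the mean level over the 44 tested members, each centred on its mean over the 6 arrays, was between 0.40 and 0.77 in the 4 SS mice and at -0.93 and -1.14 in SI 27 and 28. The part of platelet RNA in the following differences was not tested.

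Among 11 tested genes of monoamine handling and cocaine targets, 4 were higher in SS and 0 lower, against 4.7% and 0.646% of all tested genes. The median of the list was -0.12 (0.04 when arrays were scaled on all probes). Slc6a4, the serotonin transporter, was at 2.47, 2.41, 2.67 and 2.89 in SS and at 0.76 and 0.59 in SI, a 3.98-fold difference (SE 0.22 on the log2 scale, adjusted p = 0.0315). Slc18a2, the vesicular monoamine transporter, was at -2.10, -2.08, -2.01 and -1.81 against -3.70 and -3.68. Slc6a3, the dopamine transporter and the best known target of cocaine, was at -2.63, -2.55, -2.05 and -2.12 against -3.78 and -4.26, a difference of 1.77 (adjusted p = 0.0355). Ddc, the decarboxylase that makes dopamine and serotonin, differed by 1.14, but by -0.02 with normexp, where Slc18a2 and Slc6a3 differed by 0.70 and 0.63 (adjusted p = 0.173 and 0.204 in limma). For the 3 transporters, both SI mice lay below every SS mouse.

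Coagulation and fibrinolysis genes gave 5 higher and 0 lower among 12 tested, against 4.7% and 0.646% of all tested genes. Their median was 1.16 (0.32 with normexp). Serpinb2, a serine protease inhibitor, differed by 2.25 (SE 0.20, adjusted p = 0.0315), Serpine2, an inhibitor of thrombin, by 1.76, and Pros1, the anticoagulant protein S, by 1.68. F5, coagulation factor V, differed by 1.61. With normexp Serpinb2 and Serpine2 differed by 0.53 and 0.59 and did not pass in limma (adjusted p = 0.302 and 0.325). In all 5 the SS samples lay above both SI mice.

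Angiogenic factors gave 3 higher among 10 tested, against 4.7% of all tested genes, with a list median of 0.20 (-0.21 with normexp). Pdgfa, a growth factor stored in platelets, was at 1.88, 1.97, 2.00 and 2.42 in SS and at 0.14 and -0.13 in SI, or 4.33-fold. Angpt1, the ligand of the endothelial receptor Tie2, differed by 1.93 and Thbs1, thrombospondin, which is also a member of the platelet list, by 1.68. Esam, a junctional adhesion protein that platelets share with vessel walls, was the 1 of 8 tested endothelial genes that passed, with 1.29, 1.31, 1.47 and 1.72 against -0.28 and -0.21; the list median was 0.80 (-0.15 with normexp). Pecam1, found on endothelium, platelets and leukocytes, was at -0.35, -0.28, -0.42 and 0.08 in SS and at -1.65 and -1.27 in SI, with an adjusted p of 0.0607. Kdr, the main receptor for VEGF on endothelium, was at 4.67, 4.61, 3.29 and 3.48 against 3.85 and 4.80, and its 2 probes gave opposite signs.

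The haematopoietic factor Gata2 was higher in SS by 2.09 (1.27 with normexp) and was the only member of 9 tested eosinophil, basophil and mast cell genes to pass. Of that list's markers, the eosinophil lectin Siglecf was at -4.07, -3.83, -3.63 and -3.94 in SS and at -2.74 and -4.24 in SI. Gata1, which acts in erythroid cells and megakaryocytes, was at 1.89, 1.97, 1.84 and 2.35 in SS and at 0.42 and 0.06 in SI, a difference of 1.80. The glucose transporter Slc2a3 and the hexokinase Hk1 were the 2 of 22 glycolysis genes that passed, at 1.54 and 1.34. Of all tested genes 5.34% passed, and the median of the glycolysis list was -0.16.

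Neutrophil granule genes moved the other way. Of 23 tested members of the list for granules made in neutrophil precursors, 7 were lower in SS, 0 were higher, and 19 did not overlap on the lower side. Not every member, Ltb4r1 among them, encodes a granule protein. Over all tested genes 0.646% were lower and 20.1% did not overlap on that side. The median difference of the list was -1.99. Leaving out SI 27 or SI 28 gave medians of -2.33 and -1.81. Under the alternative treatments 0 to 13 members were lower, and 5 to 13 where any call in the list was left. The 2 largest differences, in Ltf (lactoferrin, -5.01) and Ngp (neutrophilic granule protein, -4.99), did not pass, with adjusted p-values of 0.0538 and 0.0523 in limma. Camp, the cathelicidin antimicrobial peptide, was at 1.92, 1.98, 0.63 and 0.51 in SS and at 4.60 and 7.14 in SI, a difference of -4.84 (SE 0.86, adjusted p = 0.0457). Lcn2, the iron-sequestering lipocalin of secondary granules, was at 0.47, 0.50, 0.29 and -0.34 against 3.29 and 5.33, a difference of -4.17 (SE 0.64, adjusted p = 0.0355). The 2 groups were far apart in both genes, and SI 28 stood above SI 27 by more than the whole SS range. In the deposited log2 table Camp and Lcn2 differed by -2.80 and -2.44 (adjusted p = 0.0754 and 0.0685 in limma).

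Wfdc21, a small secreted protein, was at -2.29, -2.22, -2.27 and -2.82 against 0.77 and 2.42. Mmp8, the neutrophil collagenase, was at -1.17, -1.36, -0.73 and -1.67 against 1.12 and 2.24. Anxa1, Pglyrp1 and Ltb4r1 completed the members that passed, at -2.10, -1.70 and -1.40. The primary-granule protease genes Elane and Ctsg, made in earlier precursors, did not pass: Elane was at -1.65, -1.77, -2.27 and -2.27 in SS and at -2.05 and -1.26 in SI, and Ctsg was well above background on 1 SS and 1 SI array. Mpo and Prtn3, of the same granules, were not well above background on the 2 arrays needed for a test.

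The promoters of the 2 granule genes with the largest differences among those that passed are given in the same way, also from the minus strand of GRCm38.p6: Camp at chr9:109849407-109849706 and Lcn2 at chr2:32387690-32387989.
Camp: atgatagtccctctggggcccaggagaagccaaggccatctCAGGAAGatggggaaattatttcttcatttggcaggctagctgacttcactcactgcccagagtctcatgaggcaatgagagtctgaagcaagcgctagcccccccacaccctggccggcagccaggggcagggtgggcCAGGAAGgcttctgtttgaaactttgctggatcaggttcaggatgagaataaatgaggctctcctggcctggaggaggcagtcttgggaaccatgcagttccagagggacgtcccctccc
Lcn2: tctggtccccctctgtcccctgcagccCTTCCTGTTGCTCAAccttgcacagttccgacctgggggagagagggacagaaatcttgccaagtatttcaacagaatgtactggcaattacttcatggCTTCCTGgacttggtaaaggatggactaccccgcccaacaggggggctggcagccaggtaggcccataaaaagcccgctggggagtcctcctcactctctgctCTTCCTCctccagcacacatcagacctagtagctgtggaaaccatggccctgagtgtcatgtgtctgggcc
Camp holds 2 ETS matches; Lcn2 holds 3 ETS matches and 1 C/EBP match. An ETS match was present in 14 of 21 promoters of the list (66.7%) and in 24.5% of all, and a C/EBP match in 28.6% and 10.8%. For RUNX the shares were 33.3% and 16.9%, and for GATA 23.8% and 19%.

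Of 26 tested genes of mature neutrophils, 4 were lower in SS, 0 were higher, and 16 did not overlap on the lower side. The shares over all tested genes were 0.646% lower and 20.1% without overlap on that side. The list median was -1.16, or -0.52 without SI 27 and -1.81 without SI 28. S100a8 and S100a9 encode calprotectin, which binds calcium and zinc in neutrophil cytoplasm. S100a8 was at 4.91, 4.98, 5.30 and 4.83 in SS and at 7.18 and 7.25 in SI, a difference of -2.19 (SE 0.22, adjusted p = 0.0315). S100a9 was at 7.39, 7.4, 7.49 and 7.19 against 8.54 and 8.94, a difference of -1.38 that did not pass with quantile normalization (-1.05, adjusted p = 0.09 in limma) and was -0.30 in the deposited log2 table. Retnlg, a resistin-like peptide, was at 1.26, 1.35, 1.87 and 1.22 against 3.71 and 3.38. Mmp25, a membrane-bound metalloproteinase, differed by -2.58, or by -0.82 with normexp (adjusted p = 0.278 in limma). The 2 groups were separate in each of these 4 genes. In the deposited log2 table all 4 lost their calls, with adjusted p-values from 0.0732 to 0.459 in limma.

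Of 28 tested erythroid genes 3 were lower in SS and 3 higher, against 0.646% and 4.7% of all tested genes, and the median was -1.13. The 3 that were lower belong to the red cell itself. Slc4a1, the anion exchanger of the red-cell membrane, was at 0.64, 0.75, 0.33 and 0.67 in SS and at 2.19 and 3.43 in SI. Bpgm, which makes 2,3-bisphosphoglycerate, was at 0.67, 0.63, -0.68 and -0.05 against 2.82 and 3.53. Ank1, the ankyrin of the red-cell skeleton, was well above background in both SI mice and in no SS mouse, and was at least 7.7-fold lower in SS. Such a bound sets the mean of the higher group against the lowest signal well above background on each array of the other, or the probe's own where that is higher, on the scale of the processed signal. With normexp Ank1 differed by -1.26 (adjusted p = 0.0814 in limma), which is smaller than its bound. The 3 that were higher were Gata1, Epor, the erythropoietin receptor, at 1.68, and the transcription factor Tal1 at 1.38. Hba-a1 was at 9.51, 9.52, 8.65 and 9.52 in SS and at 9.58 and 10.34 in SI; its near-identical copy Hba-a2 may share its signal. Haemoglobin probes took 2.01% to 3.4% of the signal in SS and 4.1% and 5.6% in SI 27 and 28. The part of residual red cells in these differences was not tested.

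Of 19 tested genes of natural killer and cytotoxic cells, 1 was lower in SS, against 0.646% of all tested genes, and 0 were higher. On the lower side 17 did not overlap, against 20.1% of all tested genes, and the list median was -1.07. The 1 that passed was Gzmb, the cytotoxic granule protease granzyme B, at -1.67 (SE 0.30, adjusted p = 0.0487). With normexp Gzmb differed by -0.78 (adjusted p = 0.214 in limma), and the list median was -0.60. Ncr1, a receptor that marks natural killer cells, was at -2.77, -2.80, -2.70 and -3.31 in SS and at -1.93 and -1.74 in SI, with an adjusted p of 0.0866. Klrb1c, a second natural killer receptor, was at -3.60, -3.36, -3.48 and -4.34 against -2.63 and -2.60.

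In the monocyte, B cell and T cell lists the 2 SI mice lay at unequal distances from SS. Of 20 classical and 15 non-classical monocyte genes 0 passed in limma, with 5 and 7 at an unadjusted p under 0.05, and the medians were -0.78 and -0.97. On the lower side 10 and 12 of them did not overlap, against 20.1% of all tested genes. In SI 27 the classical list stood 1.42 above the SS mean and in SI 28 0.25 above it; the non-classical list stood above it in both, by 1.26 and 0.70. Ccr2, the receptor that draws monocytes from bone marrow, was at -0.16, -0.19, -0.21 and -0.73 in SS, at 1.04 in SI 27 and at -1.01 in SI 28, so that the SI mice lay on both sides of SS. Csf1r, the receptor for the monocyte growth factor, was at 3.74, 3.82, 3.67 and 2.99, then 5.03 and 3.95. Cx3cr1, a receptor of non-classical monocytes, was at 0.90, 0.80, 1.03 and 0.11, then 1.83 and 0.92.

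Of 24 tested B cell genes 0 passed in limma (3 at an unadjusted p under 0.05). On the higher side 14 did not overlap, against 22.5% of all tested genes. The list median was 0.77, and SI 27 lay 1.34 below the SS mean and SI 28 0.21 below it. Ms4a1, which encodes CD20, was at 2.63, 2.64, 2.63 and 2.92 in SS, at 1.37 in SI 27 and at 2.53 in SI 28. The 25 tested T cell genes also gave 0 calls in limma, and 0 at an unadjusted p under 0.05. Their median stood 0.57 below the SS mean in SI 27 and 0.98 above it in SI 28. Cd3e, a chain of the T cell receptor complex, was at 2.18, 2.13, 0.95 and 1.43 in SS and at 1.44 and 2.34 in SI. The list of dendritic cell and MHC class II genes gave 0 calls in limma among 20 (2 at an unadjusted p under 0.05). Its class II gene H2-Ab1 was at 5.38, 5.40, 5.84 and 5.72 against 5.30 and 5.47.

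**Figure D2:**
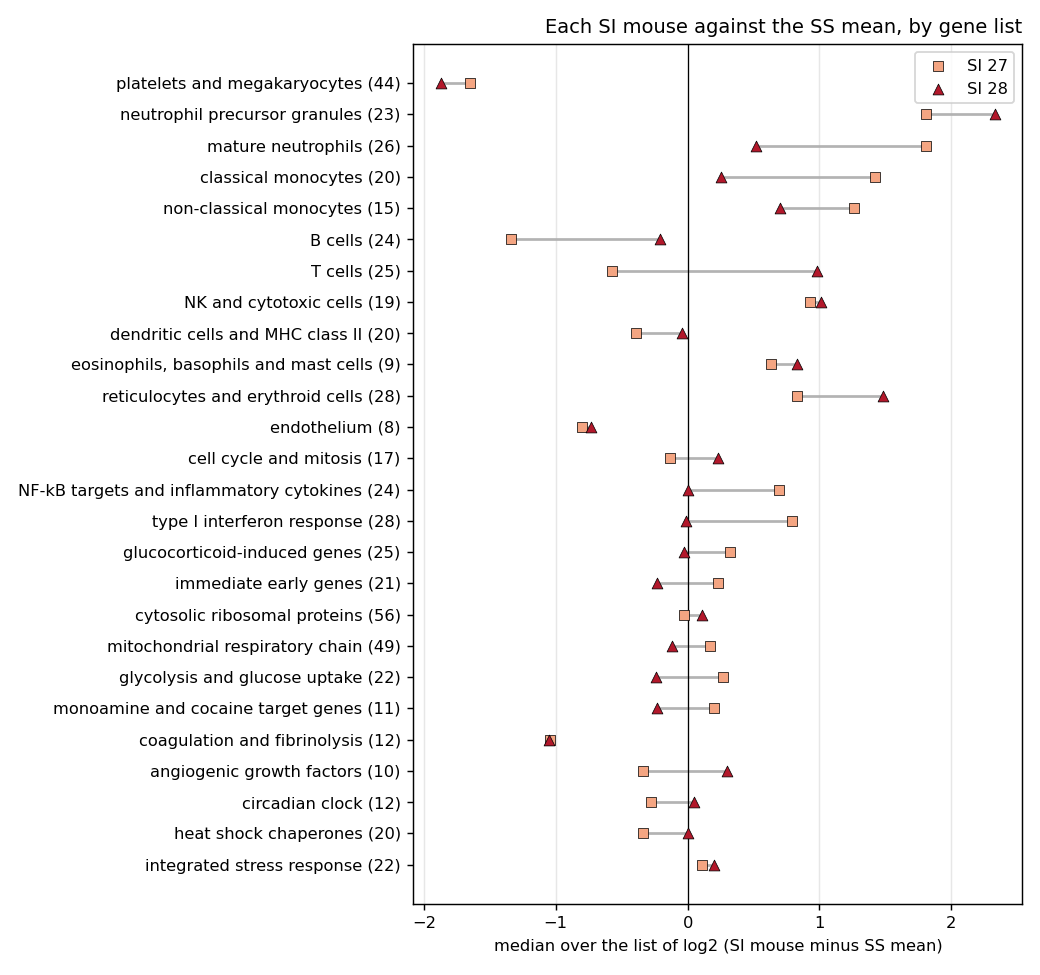
Median over the tested members of each gene list (their number in brackets) of the log2 difference between 1 SI mouse and the SS mean; the square is SI 27 and the triangle SI 28. The platelet list lies at -1.65 and -1.87 and the precursor granule list at 1.81 and 2.33, whereas the T cell list lies at -0.57 in SI 27 and 0.98 in SI 28.

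Lists of genes that respond to stress of the cell or the animal gave few calls. Over all tested genes 4.7% were higher in SS and 0.646% lower. Of 20 chaperone genes 3 were higher in SS and the median was 0.09. Hspa1a, the inducible heat shock protein of the Hsp70 family, was at -2.90, -2.76, -3.11 and -3.09 in SS and at -4.99 and -5.75 in SI, a difference of 2.36 (SE 0.29, adjusted p = 0.0315). Hspb1, a small heat shock protein, and Dnajb4, a co-chaperone, differed by 1.51 and 1.72. With normexp the 3 did not pass in limma, at 0.44, 0.30 and 0.30 (adjusted p = 0.398, 0.536 and 0.536). Among 22 genes of the integrated stress response 1 was higher, near the share of all tested genes, and 1 lower. The median of that list was -0.03. The factor Atf4 was higher in SS by 1.12. The asparagine synthetase Asns, a target of that pathway, had a difference of -1.42 (-0.98 with normexp, adjusted p = 0.0671 in limma).

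Of 25 glucocorticoid-induced genes 2 were lower and 0 higher, against 0.646% and 4.7% of all tested genes, and the median was -0.21. Anxa1, an anti-inflammatory annexin that is also a neutrophil granule gene of the list above, was at 2.38, 2.49, 2.68 and 2.05 in SS and at 4.25 and 4.71 in SI. The metallothionein Mt1 was at -4.51, -4.57, -4.03 and -4.57 against -2.86 and -2.97; its difference of -1.47 was -0.77 with normexp (adjusted p = 0.148 in limma). Of 28 interferon response genes Ifit2 alone passed, at 1.44 (0.72 with normexp, adjusted p = 0.164 in limma), while the median was -0.47. Immediate early genes, NF-kB targets, clock genes, cytosolic ribosomal proteins and the mitochondrial respiratory chain gave 0 calls in limma among 21, 24, 12, 56 and 49 tested, with 4, 4, 4, 0 and 3 at an unadjusted p under 0.05. Among them Egr1 was at -2.71, -2.47, -1.45 and -2.05 in SS and -3.29 and -3.33 in SI, with an adjusted p of 0.126. Of 17 cell cycle genes Nusap1, a spindle protein, passed at -2.53 (-1.20 with normexp, adjusted p = 0.121 in limma).

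The largest rises in SS outside these lists were in dim genes. Mill2, a class I-like surface protein, was at -3.50, -3.52, -3.30 and -3.48 in SS and not well above background in either SI mouse, at least 5.18-fold higher. Dennd2c, Rgs6, Ptprn, Lekr1 and Derl3 were likewise not well above background in SI, with bounds of at least 4.28, 4.04, 3.85, 3.55 and 2.42-fold. With normexp none of these 6 passed in limma: their differences lay between 0.00 (Derl3) and 0.39 (Mill2), with adjusted p-values from 0.444 to 0.999, below the bounds from the processed signal. Sardh, an enzyme of choline breakdown, was at -2.07, -2.09, -1.90 and -1.75 against -4.57 and -4.59, and Layn, a hyaluronan receptor, at -2.05, -2.01, -1.62 and -1.53 against -4.19 and -4.27. Triqk, Apcdd1 and Timp3, an inhibitor of metalloproteinases, differed by 2.72, 2.66 and 2.60. With normexp these 5 differed by 0.53 (Timp3) to 0.99 (Sardh) and did not pass in limma, with adjusted p-values from 0.0635 to 0.338.

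The largest falls outside the lists were genes well above background in both SI mice and on 0 of 4 SS arrays: Olfr1251, Klf5, Aldh5a1, Dmtn and Gm20736, with bounds of at least 3.51, 2.95, 3.4, 4.44 and 2.08-fold lower in SS. With normexp these 5 did not pass in limma either, with differences from -0.91 (Dmtn) to -0.56 (Gm20736) and adjusted p-values from 0.216 to 0.464, again below the bounds. Dmtn encodes a protein of the red-cell membrane skeleton and Klf5 a transcription factor. Ffar2, a receptor for short-chain fatty acids found on neutrophils, was at -5.86, -6.35, -5.23 and -5.67 in SS and at -3.23 and -1.32 in SI; its difference of -3.39 was -1.31 with normexp (adjusted p = 0.166 in limma). Probes to intergenic intervals, designed for long non-coding RNA, gave 113 higher and 18 lower among 3368 tested. Over all tested probes the shares were 4.19% higher and 0.557% lower.

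The 2 SI mice differed from each other by over 1 on the log2 scale in 1663 of 10984 genes, 1082 higher in SI 28 and 581 higher in SI 27. Their median absolute difference was 0.39, against a median of 0.25 over the 6 pairs of SS arrays. In 388 genes SI 27 lay above and SI 28 below all SS mice, and in 557 genes the reverse. Of the 587 called genes, 448 had the larger departure from the SS mean in SI 28. Over all 10984 tested genes the order was reversed: the median absolute departure was 0.43 in SI 27 and 0.35 in SI 28. Some probes set 1 SI mouse apart. Smarcal1, a helicase that restarts stalled forks, was at 5.53 in SI 28 and between -2.36 and -1.95 on the other 5 arrays, while its other probe read -3.82 in SI 28 and -4.80 to -4.03 on the other 5 arrays. Itgb2, the common chain of leukocyte integrins, was at 6.35 in SI 28 and at 2.25 to 2.39 on the other arrays. Lnpep, Exosc8 and Sft2d3 also stood out in SI 28, at 1.84, 1.82 and -0.46. Fn1, fibronectin, was at 2.19 in SI 27 and -2.06 in SI 28, with SS from 0.05 to 1.75, and Igfbp6 at -0.60 and -4.22. Nes, nestin, was at -5.07 in SI 27 and -1.90 in SI 28.

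**Figure D3:**
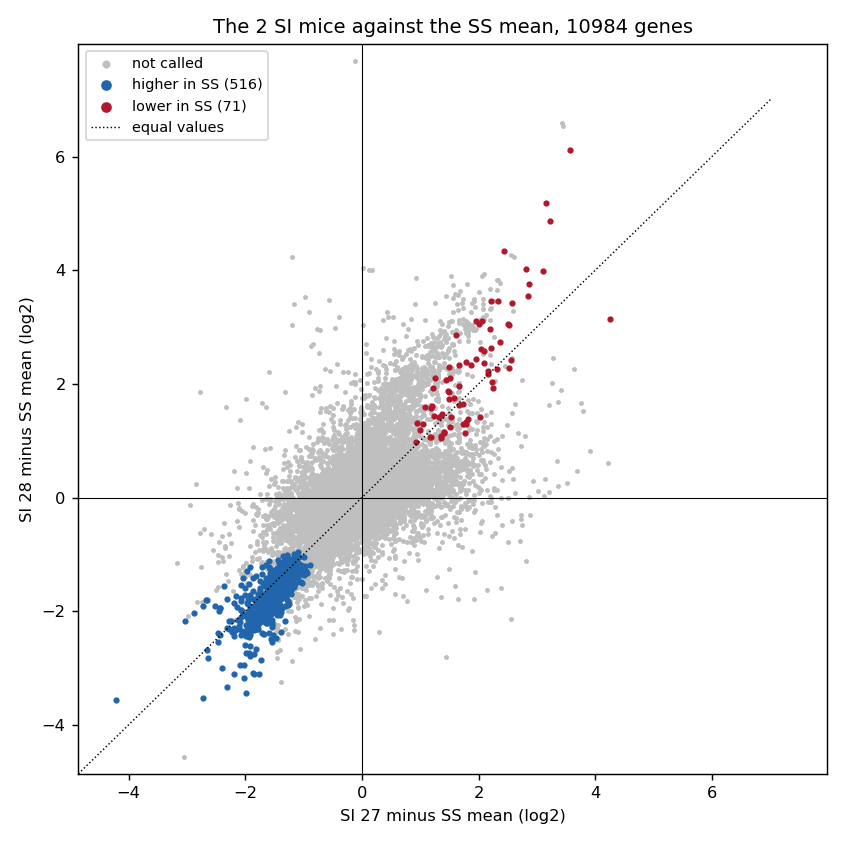
Difference from the SS mean in SI 27 (x axis, log2) and SI 28 (y axis, log2) for 10984 genes; blue marks the 516 genes called higher in SS, red the 71 called lower, and the dotted line equal values. Called genes lie in the 2 corners where both SI mice depart the same way, and Smarcal1 stands alone at the top.

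The first slide carries 4 SS and 4 SI mice labelled male, so its difference from the second is also that of the sex label and slide. In a fit of both slides, scaled on probes well above background on all 14 arrays, 9 probes (0.0418%) had an SS minus SI difference that itself differed between slides, 7 lower on the second (0.0325%) and 2 higher (0.00928%). They include 6 named genes (0.0546%), 4 lower (0.0364%) and 2 higher (0.0182%). Camp was at 4.31 and 6.84 in SI and at 0.21 to 1.67 in SS on the second slide, but at -0.41 to 0.52 in SI and at 1.12 to 2.10 in SS on the first. The difference between slides was -6.37 (SE 0.83, adjusted p = 0.0216). Ngp, a neutrophilic granule protein that did not pass on the second slide alone, differed by -6.90, and Lcn2 by -4.67. P3h4 differed by -2.83 (adjusted p = 0.0472 in limma), and did not pass when arrays were scaled on all probes (0.111), after quantile normalization (0.391) or in the deposited log2 table (0.473).

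Manea went the other way, with 3.41, but was well above background on only 2 of 8 arrays of the first slide. On the second slide it was so on 2 SS and 0 SI arrays. These calls also rested on single arrays: 0 of the 9 probes remained without SI 5, SI 6, SS 2 or SS 01b of the first slide or SS 22 of the second, with between 1016 and 1346 probes at an unadjusted p under 0.05 in limma. Without SI 27, SI 28 or SS 23 of the second slide or SS 1 of the first there were 28, 2, 2 and 3 lower and 0 higher, without SS 3 of the first 1 of each, and without SI 4 of the first 15 lower and 5 higher. Platelet genes gave 0 calls in limma for a difference between slides among 44, and 0 at an unadjusted p under 0.05; their median SS minus SI was 1.29 on the first slide and 1.74 on the second in that fit. The precursor granule list had medians of 0.19 and -2.0.

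**Figure D4:**
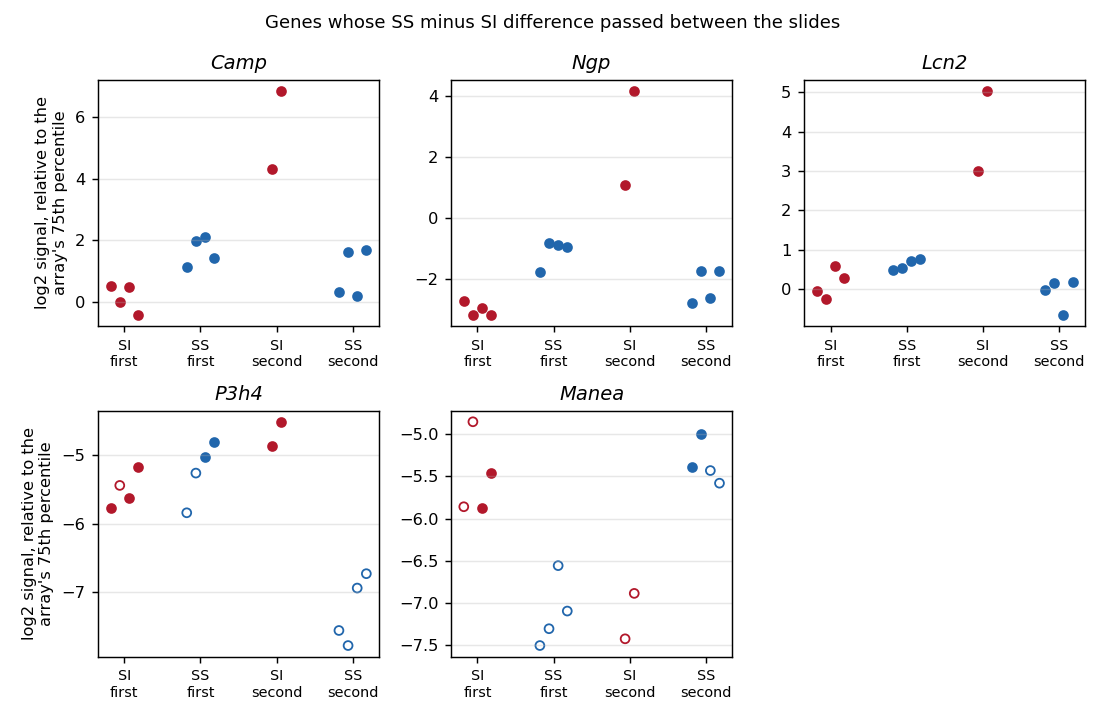
Level (log2 signal relative to the array's 75th percentile, scaled over both slides) of 5 genes whose SS minus SI difference passed between slides, for each array; red is SI, blue SS, and open circles mark arrays on which the probe was not well above background. Camp, Ngp and Lcn2 are highest in the 2 SI mice of the second slide.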

How the data were processed

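Scanner files of 14 one-colour Agilent arrays were used, 6 of them from the second slide. The deposited processed signals are fluorescence intensity, with background subtracted by Agilent Feature Extraction, version 10.7.3.1 per the file headers and 9.1 per the submitters' processing notes. The authors also deposited a log2 value table and no label or header states how it was normalized; its column medians for these 6 arrays were 7.22 to 7.45. The other deposited columns, per the file headers, are flags. Control spots and outlier spots were left out, and spots of a probe were averaged as log2 values (55681 probes). Arrays were scaled to the 75th percentile of the probes well above background on all 6 arrays. A probe entered the test where 2 or more of the 6 arrays had it well above background. Tests used limma 3.58.1 in R 4.3.3 (files read with the data.table package, version 1.17.8) and were two-sided, with Benjamini-Hochberg adjustment over all tested probes at 0.05. The slides were compared in 1 fit of 4 groups over all arrays.

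The planned fit took the 6 arrays as separate samples. Because SS 20 and SS 21 were far closer to each other than any other pair of arrays, their mean was used as 1 sample. This was decided after seeing the data. The fit of 6 separate arrays and one without both are given as added alternatives. Where a gene had several tested probes, the brightest over the 6 arrays stood for it; symbols came from RefSeq (GRCm38.p6), for 26425 of 31063 probes with such an identifier, and array coordinates were not used. Named genes were the 12 largest rises and falls, up to 4 called members of each list (or 2 with the lowest p), the first 2 measured markers of each cell type, and the leading genes between SI mice and between slides. Pdgfb, Sparc, Ltf, F5, Epor, Tal1, Pglyrp1 and Ltb4r1 were named after their values were seen. The members and lists were chosen with earlier results of these data known. Values of some genes that the rule would name are not reported here. Code was tested on simulated data. The number of arrays limits the precision.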

Additional observations from a re-analysis of the deposited data

Results flagged for a closer look

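The SS minus SI difference of the following 5 genes differed between the slides by a test of the difference itself (limma, 4 groups, adjusted p between 0.0216 and 0.0472). It was lower on the second slide for Ngp (-6.90), Camp (-6.37), Lcn2 (-4.67) and P3h4 (-2.83), and higher for Manea (3.41). In all 5 the difference had opposite signs on the slides. On the first slide it was 1.89 for Ngp (SE 0.53), 1.51 for Camp (SE 0.51) and -1.61 for Manea (SE 0.28). For Lcn2 and P3h4 it was only 0.49 (SE 0.38) and 0.26 (SE 0.26). For SS minus SI on the first slide 0 of 21549 probes passed in that limma fit. The lowest adjusted p was 0.125, with 3882 at an unadjusted p under 0.05. The call for P3h4 was lost in 3 of 4 other treatments of the arrays, with a highest adjusted p of 0.473 in limma. It was also lost in 11 of 14 fits without 1 array. Such fits ended the calls of Camp, Lcn2 and Manea in 9 of 14 cases each and that of Ngp in 7 of 14. P3h4 was well above background on 5 of 8 arrays of the first slide and Manea on 2 of 8. On the second slide P3h4 was so on 0 SS and 2 SI arrays, and Manea on 2 SS and 0 SI arrays. With normexp the SS minus SI difference of Manea on the second slide was -0.20. Groups of 3 or fewer samples were not searched for outliers.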

How the results depend on the processing

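Except with normexp background correction, where 946 did, all 1023 called probes kept their direction under each second-slide alternative that tested them. Leaving out arrays could not turn the direction in the 587 called genes. In all of them both SI mice lay outside the SS range on the called side. The counts moved more. Against 903 higher and 120 lower, there were 506 higher with normexp, 283 higher and 70 lower in the deposited log2 table, 239 higher with all 14 arrays in 1 fit, 186 lower with scaling on all probes, 273 lower with a trended robust prior, and 1500 higher and 413 lower with SS 20 and SS 21 as separate samples. With all 14 arrays, 74.2% of calls were higher, against 88.3%. In limma 0 probes passed with no filter on dim probes, with array quality weights or with array row as a block; 6444, 4809 and 6032 had an unadjusted p under 0.05, and the lowest adjusted p was 0.201, 0.0504 and 0.0523. Leaving out arrays gave 0 to 902 higher and 0 to 122 lower; without SS 20 alone or SS 21 alone, 965 and 943 of the 1023 remained called.

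The platelet median ranged from 1.65 to 1.87 without single arrays and was 0.97 in the deposited table. The precursor granule median ranged from -2.33 to -1.73 and was -1.57 with normexp; that of mature neutrophils ranged from -1.81 to -0.52. Scaling on all probes moved the median of all probes from -0.04 to 0.12, normexp to -0.22, and no filter on dim probes to -0.41, where 55681 probes were tested. Other medians changed sign: with scaling on all probes, cell cycle (0.00) and monoamine genes (0.04); with normexp, endothelium (-0.15), immediate early genes (-0.15) and angiogenic factors (-0.21); and over all fits with arrays left out, medians ranged from -0.79 to 0.01 for interferon, -0.32 to 0.03 for glucocorticoid, -0.27 to 0.24 for glycolysis, -0.26 to 0.23 for monoamine and -0.30 to 0.34 for angiogenic genes, with the sign turned without SI 27, and from -0.98 to 0.57 for T cells, -0.23 to 0.13 for cell cycle and -0.23 to 0.27 for immediate early genes, with the sign turned without SI 28. With normexp Ddc (-0.02), Derl3 (0.00) and Manea (-0.20) lost or turned their sign. The causes were not tested. Genes differing by over 1 between the SI mice numbered 429 with normexp and 1016 among probes well above background on all 6 arrays.

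Between slides, the 2 higher and 7 lower probes became 12 higher in the deposited table and 11 lower with SS 20 and SS 21 apart; leaving out arrays gave 0 to 5 higher and 0 to 28 lower. No paired analysis was possible because SS and SI mice on the second slide share no replicate numbers. With 2 SI mice, a lone SI mouse was assumed to vary like SS.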
